A study of Mus musculus with 11 samples.

Results

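The bile acid and sterol transporters of hepatocytes were followed as a set of 10 genes, chosen by name, though earlier results of these data were known. The set holds 4 uptake carriers of the blood-facing (basolateral) membrane (Slc10a1, Slco1a1, Slco1a4 and Slco1b2), 5 export pumps of the bile-facing (canalicular) membrane (Abcb11, Abcb4, Abcc2, Abcg5 and Abcg8) and 1 basolateral export pump (Abcc3). All 10 were found among the 54232 Ensembl genes in the count files, and all 10 were among the 13303 genes that passed the filter on low counts.

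RNA came from hepatocytes of adult male C57BL/6 mice, purified after isolation on a Percoll density gradient. In Xbp1LKO mice the X-box binding protein 1 gene is deleted by a Cre recombinase under the albumin promoter, which acts in hepatocytes, and Xbp1fl/fl mice with the floxed gene and no such deletion served as controls. Feeding lasted at most 6 weeks, with either standard chow or a diet rich in fat and sugar (HFS, a Western-type feed with fructose and glucose in the drinking water), and this gave 3 chow-fed Xbp1fl/fl, 2 chow-fed Xbp1LKO, 3 HFS-fed Xbp1fl/fl and 3 HFS-fed Xbp1LKO libraries. A chow library holds 1 mouse, whereas an HFS library pools 2, so the spread within the HFS groups is that of pools. The diet comparisons therefore set pools against single mice, and the model fitted below gives both kinds of library a shared spread.

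Hepatocytes take bile acids up from portal blood, mostly through the sodium-dependent carrier encoded by Slc10a1 and the organic anion carriers of the Slco family, and return them to bile through the bile salt export pump encoded by Abcb11. Bile also needs phospholipid, which Abcb4 moves into the canalicular membrane, and sterols, which the paired half-transporters Abcg5 and Abcg8 export as a heterodimer. Abcc2 exports conjugated organic anions such as bilirubin glucuronides into bile, while Abcc3 sends conjugates back to blood, a route known to be used when bile flow is blocked.

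The total count was 19191032 to 23888401 per library, so the least expressed member, Slco1a4, still had 318 to 2155 counts and the others at least 1711. Values are depth-scaled counts (CPM) with edgeR's TMM normalization, which aligns the bulk of genes between libraries. A member passed the test when edgeR's quasi-likelihood model, fitted to all 11 libraries, gave it a p under 0.05 after Benjamini-Hochberg adjustment over all genes tested. Xbp1 was 194 to 301 CPM in Xbp1fl/fl libraries and 95.7 to 135 CPM in Xbp1LKO libraries, and a count over the whole gene does not separate the deleted exon. Alb took 5.88% to 10.9% of the counts in Xbp1fl/fl libraries and 1.67% to 5.40% in Xbp1LKO libraries, and the TMM factors were 0.88 to 0.94 and 1.05 to 1.19 in the same order. Without TMM, on library totals, the median log2 fold change of all genes moved from 0.0024 to 0.33 for genotype on chow and from 0.0083 to 0.27 for genotype on HFS.

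The 14 hepatocyte markers were all detected, with a summed level of 123162 to 179929 CPM in Xbp1fl/fl libraries and 45376 to 97763 CPM in Xbp1LKO libraries. Alb alone was 64343 to 119367 CPM in Xbp1fl/fl and 14021 to 51478 CPM in Xbp1LKO libraries, so this gene weighs heavily in the sum. Of the 13 cholangiocyte markers, 6 were tested, and their sum over all 13 was 79.4 to 111 CPM. Cftr was at 0 in every chow-fed and HFS-fed Xbp1fl/fl library, Krt7 in the HFS-fed Xbp1fl/fl libraries and Cldn7 in the chow-fed Xbp1LKO libraries, while the stellate marker Acta2 was at 0 in every Xbp1fl/fl library. Summed macrophage markers were 21.6 to 93.7 CPM in chow-fed Xbp1fl/fl, 25.4 to 36.8 in chow-fed Xbp1LKO, 42.0 to 59.4 in HFS-fed Xbp1fl/fl and 59.6 to 104.9 in HFS-fed Xbp1LKO libraries. Endothelial markers summed to 50.6 to 122, 30.6 to 38.7, 96.5 to 165 and 80.4 to 124.5 CPM, and stellate markers to 19.3 to 65.0, 14.1 to 16.7, 34.0 to 60.9 and 38.7 to 80.1 CPM, in the same order of groups. Lymphocyte markers stayed at or below 3.14 CPM in sum, and each group had 1 to 3 of the 8 at 0. Of the tested cholangiocyte markers, Sox9 fell for genotype on chow (log2 fold change -1.54, edgeR adjusted p = 0.0159). No macrophage, endothelial, stellate or lymphocyte marker passed the test in any comparison.

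All members except Slco1a4 were abundant transcripts. Because longer transcripts collect more reads, levels were compared between genes as mean CPM per kilobase of annotated exon over the 11 libraries. On that scale the order was Slco1b2 (431), Slc10a1 (331), Abcb11 (142), Slco1a1 (115), Abcc2 (113), Abcg5 (75.3), Abcc3 (74.7), Abcg8 (68.2), Abcb4 (38.4) and Slco1a4 (7.35). The step from Slc10a1 down to Abcb11 and the step from Abcb4 down to Slco1a4 were seen in 11 of 11 libraries, with no overlap of per-kilobase levels within any of the 4 groups. Every other pair of neighbours in this order overlapped in at least 1 group, and Slco1b2 stood above Slc10a1 in 8 of 11 libraries. The lengths are unions of all annotated exons, so a gene with long alternative exons is placed lower than its main transcript would be.

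**Figure D1:**
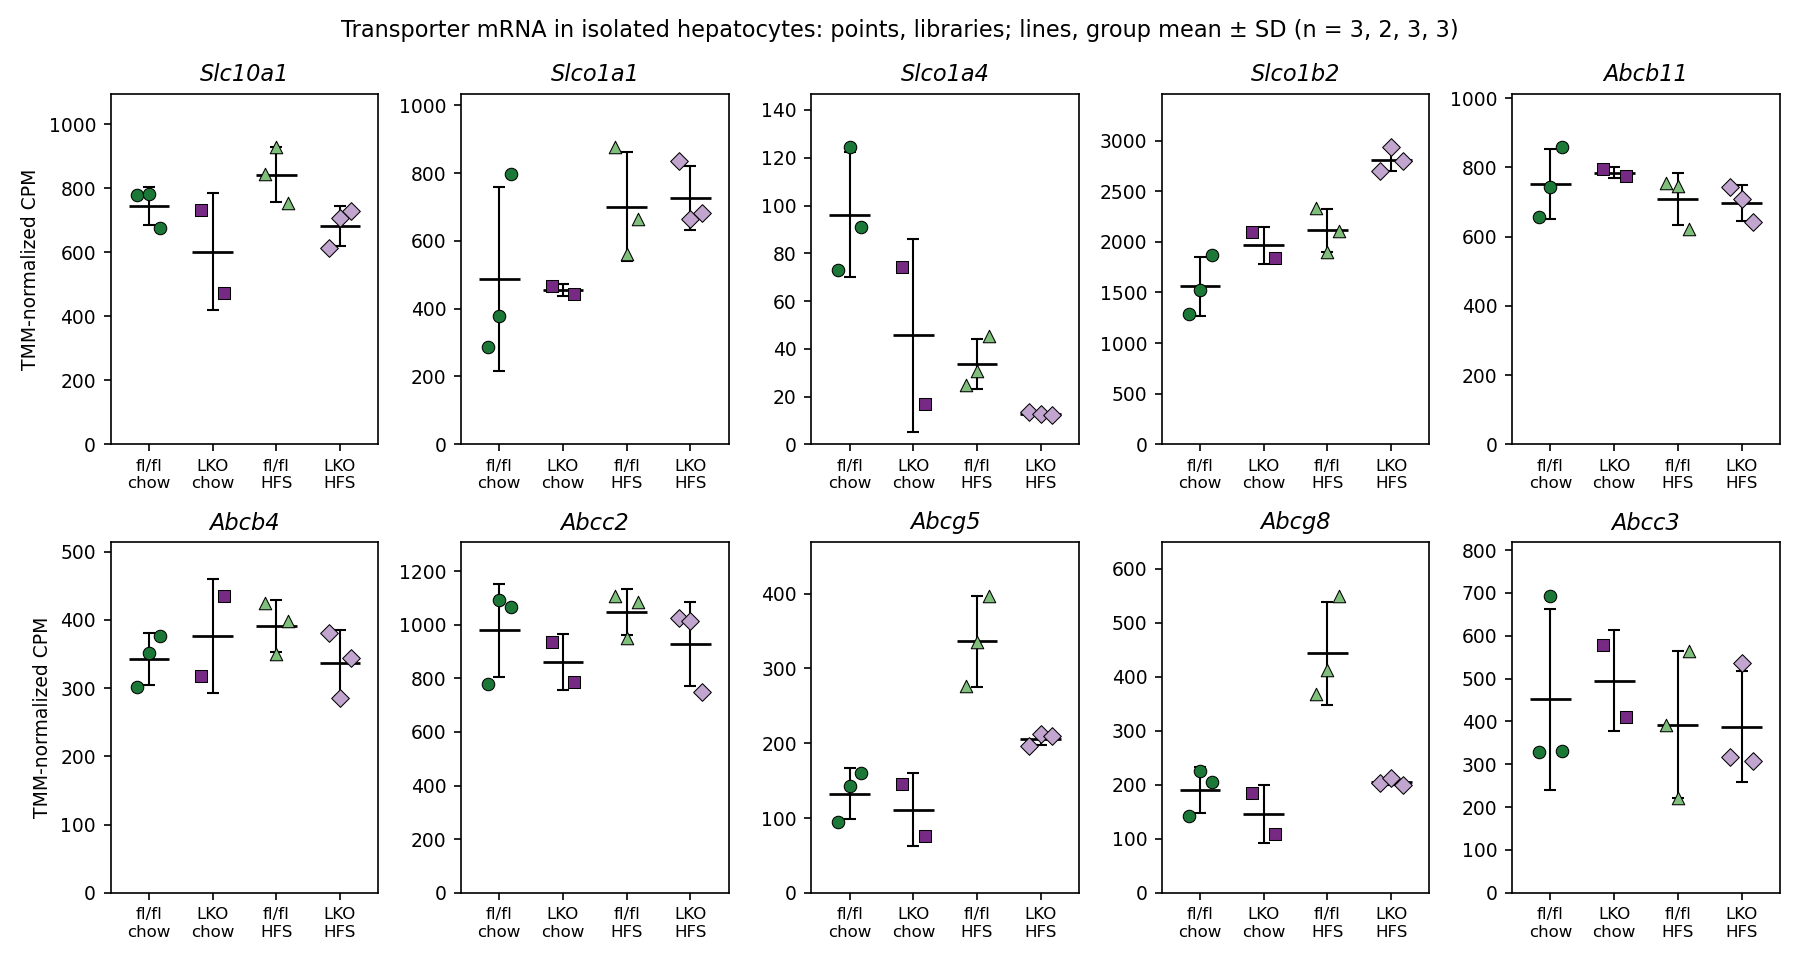
TMM-normalized CPM (y axis, from 0) of the 10 transporters in each library, by genotype and diet group (x axis). Points are libraries, horizontal lines are group means and bars are SDs (n = 3, 2, 3 and 3), and the HFS-fed Xbp1fl/fl libraries hold the highest Abcg5 and Abcg8 values while Slco1a4 is lowest, at 12.2 to 13.6 CPM, in HFS-fed Xbp1LKO libraries.

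Across the comparisons, few members passed the test, and those that did were Abcg5 and Abcg8. For genotype on chow, 0 of 10 members passed, where 4.65% of all tested genes did, and 0 members had an unadjusted p under 0.05. For genotype on HFS, 1 of 10 passed, which was the lower Abcg8, beside 4.19% of all genes in either direction and 2.26% that were lower. For diet in Xbp1fl/fl mice, 2 of 10 passed, the higher Abcg5 and Abcg8, beside 0.406% of all genes in either direction and 0.12% that were higher. For diet in Xbp1LKO mice 0 of 10 passed, beside 0.0601% of all genes. The interaction of genotype and diet was called for 0 members and 0% of all genes by edgeR, while 1 member and 803 genes had an unadjusted p under 0.05, and DESeq2 called 0 members and 31 genes.

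The median log2 fold change of the members was -0.14 for genotype on chow, -0.19 for genotype on HFS, 0.18 for diet in Xbp1fl/fl mice and 0.15 for diet in Xbp1LKO mice. The median over all tested genes lay within 0.0083 of 0 in these 4 comparisons. Groups without overlap of CPM were found for 0 of 10 members for genotype on chow (31.3% of all genes), 5 of 10 for genotype on HFS (26.1%), 4 of 10 for diet in Xbp1fl/fl mice (13.7%) and 6 of 10 for diet in Xbp1LKO mice (31.1%).

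**Figure D2:**
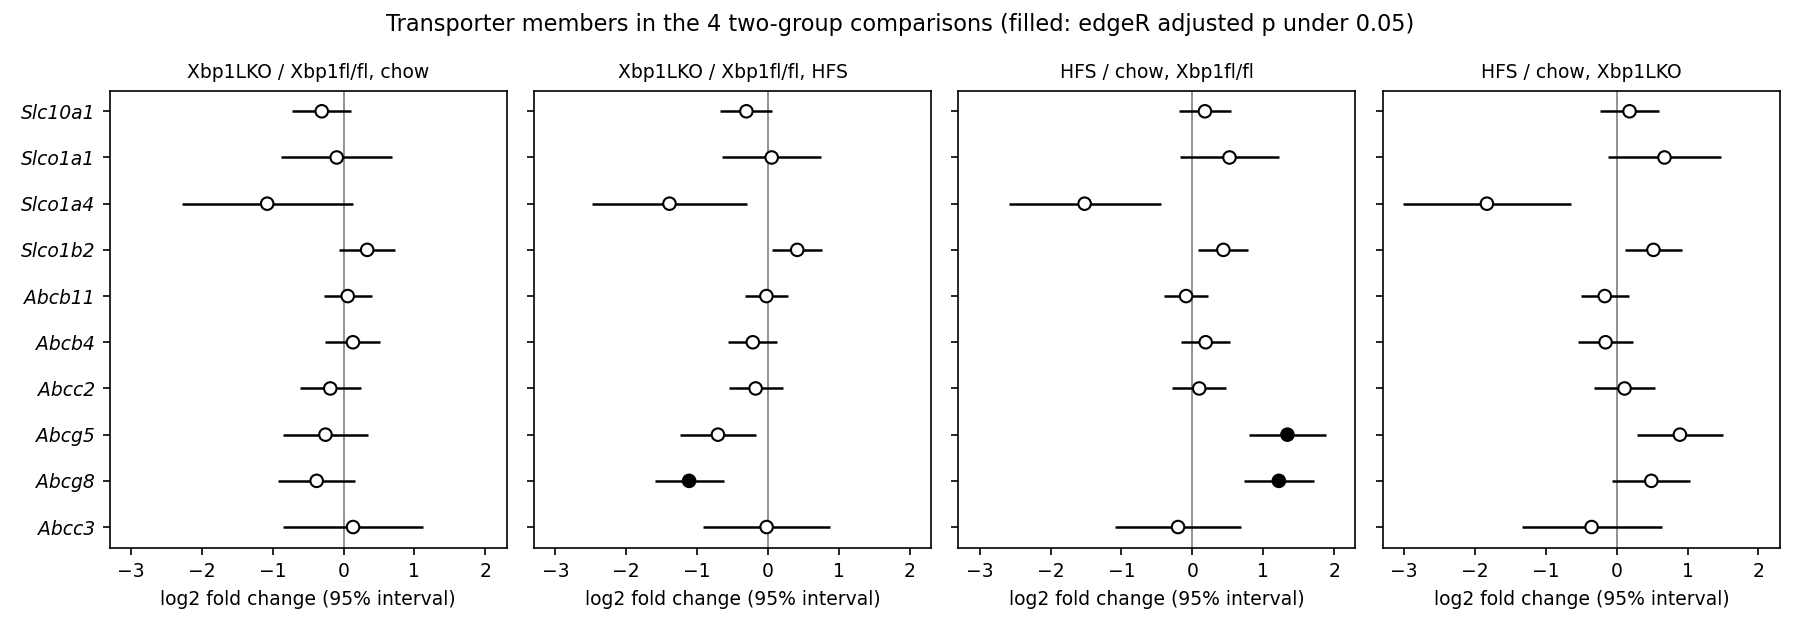
Log2 fold change (x axis) of each member (y axis) for genotype on chow, genotype on HFS, diet in Xbp1fl/fl mice and diet in Xbp1LKO mice, from edgeR. Points are estimates and lines their 95% intervals, and the 3 filled points, Abcg8 for genotype on HFS and Abcg5 and Abcg8 for diet in Xbp1fl/fl mice, are those with an adjusted p under 0.05.

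The sterol pump pair held all the members that passed the test: Abcg5 and Abcg8 rose with HFS feeding in Xbp1fl/fl hepatocytes, and Abcg8 was lower in Xbp1LKO than in Xbp1fl/fl hepatocytes after HFS feeding. The genes lie head to head on chromosome 17 of GRCm38. Abcg5 (ENSMUSG00000040505) runs from 84658234 to 84683011 on the minus strand and Abcg8 (ENSMUSG00000024254) from 84676302 to 84700333 on the plus strand, where GENCODE M21 gives Abcg8 a further upstream start inside Abcg5. The RefSeq starts nearest to each other are at 84683011 for Abcg5 and 84683121 for Abcg8. The 109 bases between them are shown because both genes are transcribed outward from this one stretch. It is printed on the plus strand, toward Abcg8, from RefSeq (GRCm38.p6, chr17:84683012-84683120), and the capitals mark TTATCT, the reverse complement of AGATAA, and TTTATA, the reverse complement of TATAAA.

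Abcg5 to Abcg8: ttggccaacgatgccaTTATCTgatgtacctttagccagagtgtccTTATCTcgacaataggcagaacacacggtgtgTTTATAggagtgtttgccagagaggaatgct

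Within the 250 bases before its start, Abcg5 holds AGATAA on either strand 52 and 22 bases upstream and TATAAA 84 bases upstream. Distances run to the base of each element that lies farthest from the start. From the Abcg8 start the same AGATAA copies stand 93 and 63 bases upstream and TATAAA 31, and a further AGATAA at 127 bases falls past the Abcg5 start. AGATAA was found in 9.99% of 32851 RefSeq promoter windows of this length, and among the 9 members with a window in this table only in Abcg5 and Abcg8, which share it.

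Abcg8 was measured at 142, 225 and 204 CPM in the chow-fed Xbp1fl/fl libraries and at 184 and 108 CPM in the chow-fed Xbp1LKO libraries. After HFS feeding it was 367.5, 413 and 551 CPM in Xbp1fl/fl and 204, 212 and 200.1 CPM in Xbp1LKO libraries. The HFS-fed Xbp1fl/fl libraries stood above all 8 others, and HFS-fed Xbp1LKO libraries lay within the range of the chow-fed Xbp1fl/fl group. For genotype on HFS the log2 fold change was -1.11 (standard error 0.22, edgeR adjusted p = 0.019), from 444 ± 95.4 to 205 ± 6.31 CPM (SD, n = 3 each). For diet in Xbp1fl/fl mice it was 1.22 (standard error 0.22, edgeR adjusted p = 0.0432), from 190.4 ± 43.3 CPM on chow (SD, n = 3). Both comparisons used the same 3 HFS-fed Xbp1fl/fl libraries. In bulk RNA, fewer cells that express a gene and less of its RNA per cell cannot be told apart.

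For Abcg8, genotype on chow gave a log2 fold change of -0.38 (95% interval -0.93 to 0.17, edgeR adjusted p = 0.455), and diet in Xbp1LKO mice gave 0.49 (95% interval -0.06 to 1.04, edgeR adjusted p = 0.453). The interaction, which asks whether the genotype difference itself depended on diet, had a log2 value of -0.73 (standard error 0.33) with an unadjusted p of 0.0473 and an edgeR adjusted p of 0.826. These values rest on the 2 chow-fed Xbp1LKO libraries. Without replicate 1 or replicate 2 of that group, genotype on chow gave -0.81 or -0.05, diet in Xbp1LKO mice 0.92 or 0.16 and the interaction -0.30 or -1.06, and none passed edgeR's test. The genotype difference of Abcg8 on HFS was thus not shown to differ from that on chow.

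Abcg5 followed a similar course, at 94.4, 143 and 160.4 CPM in chow-fed Xbp1fl/fl and 146 and 76.3 CPM in chow-fed Xbp1LKO libraries. After HFS feeding it was 276, 335 and 398 CPM in Xbp1fl/fl and 196, 213 and 209 CPM in Xbp1LKO libraries. The HFS groups did not overlap each other, and each lay above its chow-fed group. For diet in Xbp1fl/fl mice the log2 fold change was 1.34 (standard error 0.25, edgeR adjusted p = 0.0468). Genotype on HFS gave -0.71 (standard error 0.24, edgeR adjusted p = 0.147), which did not pass the test.

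The diet calls in Xbp1fl/fl mice are close to the threshold. Leaving out any 1 HFS-fed library of either genotype or any 1 chow-fed Xbp1fl/fl library ended both, with edgeR adjusted p of 0.0759 to 0.212 for Abcg5 and 0.0697 to 0.211 for Abcg8, at log2 fold changes of 1.15 to 1.50 and 1.04 to 1.36. A fit of only the groups compared ended both as well (adjusted p = 0.0552 and 0.0692). Both held with DESeq2 and on library totals. Over the 19 alternatives, Abcg5 passed for this comparison in 6 and Abcg8 in 7. The Abcg8 call for genotype on HFS ended without HFS-fed Xbp1fl/fl replicate 3 (adjusted p = 0.0774, log2 fold change -0.93) or without HFS-fed Xbp1LKO replicate 2 (0.0769, -1.14) or 3 (0.0739, -1.09). That Abcg8 call held in 16 of the 19 alternatives, DESeq2 among them. In a fit of only the HFS groups, Abcg5 passed too (log2 fold change -0.70, edgeR adjusted p = 0.0216).

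The balance of the pair was set apart in HFS-fed Xbp1LKO hepatocytes, though not past the test. The ratio of Abcg5 to Abcg8 counts was 0.666, 0.636 and 0.785 in chow-fed Xbp1fl/fl, 0.792 and 0.704 in chow-fed Xbp1LKO and 0.751, 0.811 and 0.722 in HFS-fed Xbp1fl/fl libraries, and 0.964, 1.00 and 1.05 in HFS-fed Xbp1LKO libraries. The 3 HFS-fed Xbp1LKO libraries were above all 8 others. A ratio within 1 library does not depend on how libraries are scaled. The mean log2 ratio on HFS was 0.40 higher in Xbp1LKO than in Xbp1fl/fl libraries, with a two-sided exact permutation p of 0.1 (n = 3 and 3) and 0.457 after adjustment over the 16 ratio comparisons. No comparison of 3 against 3 libraries can give a smaller p than 0.1, and none of 3 against 2 a smaller p than 0.2. The genes share 34 of the 50-base words of their exons, 1.24% of those of Abcg5 and 0.897% of those of Abcg8, since their annotated exons overlap on opposite strands.

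**Figure D3:**
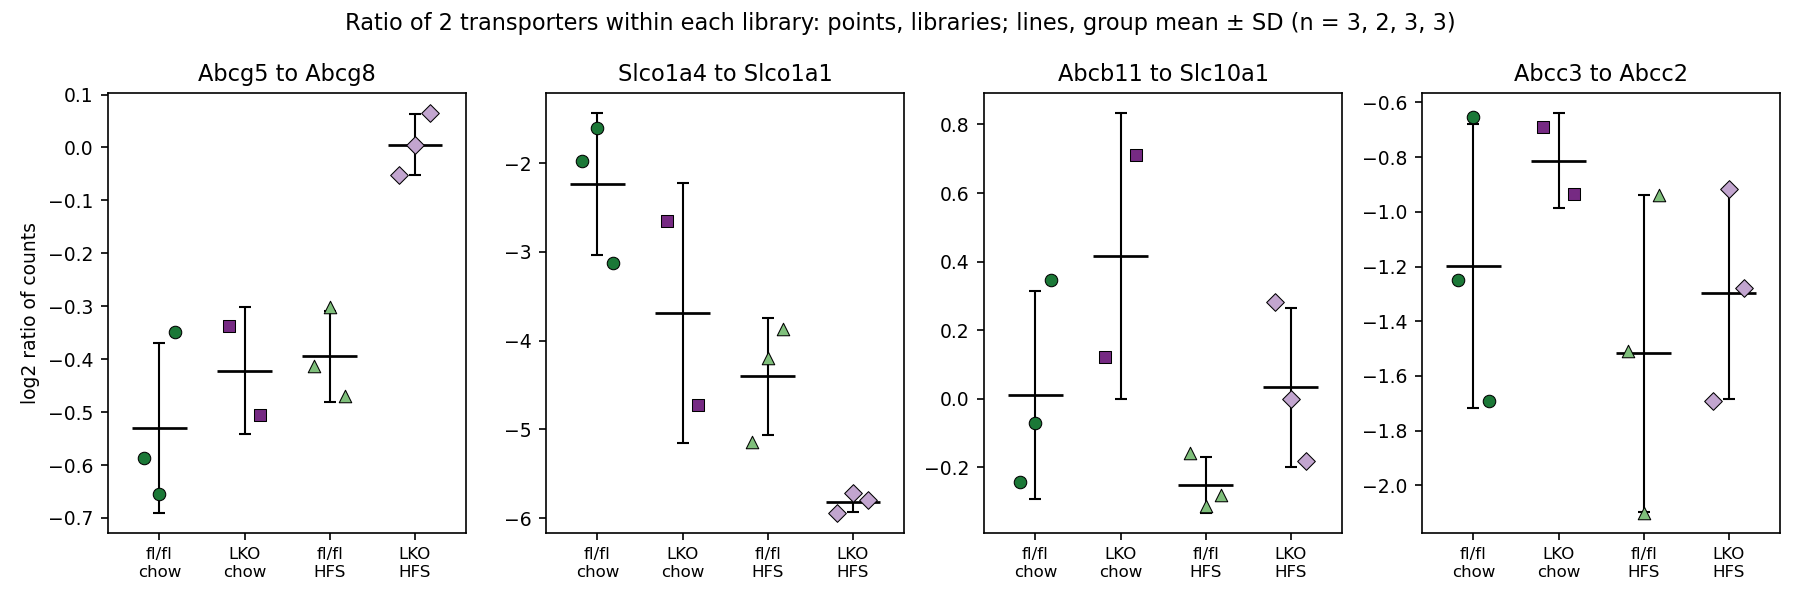
Log2 ratio of the counts of 2 transporters within each library (y axis, scales differ between panels) by genotype and diet group (x axis). Points are libraries, lines are means and bars SDs (n = 3, 2, 3 and 3), and the ratio of Abcg5 to Abcg8 in HFS-fed Xbp1LKO libraries, from -0.05 to 0.06, lies above every other library.

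Among the uptake carriers, Slco1a4 had the largest estimated differences of all 10 members, and none passed the test. Slco1a4 (ENSMUSG00000030237), which encodes an organic anion carrier of broad substrate range, lies on chromosome 6 of GRCm38 from 141805440 to 141856199 on the minus strand, next to Slco1a1. It was 72.9, 124.5 and 91.1 CPM in chow-fed Xbp1fl/fl libraries and 74.3 and 16.9 CPM in chow-fed Xbp1LKO libraries. On HFS it was 24.9, 30.5 and 45.2 CPM in Xbp1fl/fl and 13.6, 12.6 and 12.2 CPM in Xbp1LKO libraries. Within each genotype the HFS libraries were below the chow libraries, and on HFS every Xbp1LKO library was below every Xbp1fl/fl library.

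The log2 fold change of Slco1a4 was -1.39 (95% interval -2.48 to -0.29) for genotype on HFS, with an edgeR adjusted p of 0.173. It was -1.52 (-2.59 to -0.45) for diet in Xbp1fl/fl mice and -1.83 (-3.01 to -0.65) for diet in Xbp1LKO mice, with edgeR adjusted p of 0.363 and 0.249. For genotype on chow it was -1.08 (-2.29 to 0.13), where the 2 chow-fed Xbp1LKO libraries differed 4.40-fold from each other. That pair decides several outcomes. Without chow-fed Xbp1LKO replicate 1 the genotype difference on chow was -2.51 (edgeR adjusted p = 0.00643), and leaving out either of the pair brought the adjusted p for genotype on HFS to 0.0107 or 0.0104 and for diet in Xbp1fl/fl mice to 0.0275 or 0.0282. Without replicate 2, diet in Xbp1LKO mice gave -2.53 (edgeR adjusted p = 0.0369). A fit of only the HFS groups gave an adjusted p of 0.00964 for genotype.

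Slco1a1 (ENSMUSG00000041698), a male-predominant organic anion carrier of mouse liver, was measured at 287, 378 and 796 CPM in chow-fed Xbp1fl/fl and 468 and 444 CPM in chow-fed Xbp1LKO libraries. After HFS feeding it was 877, 562 and 663 CPM in Xbp1fl/fl and 836.5, 663.5 and 681 CPM in Xbp1LKO libraries. Chow-fed Xbp1fl/fl libraries spanned 2.78-fold, and the groups overlapped in every comparison except diet in Xbp1LKO mice. The largest of its log2 fold changes was 0.67 for diet in Xbp1LKO mice (95% interval -0.13 to 1.47, edgeR adjusted p = 0.475).

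The ratio of Slco1a4 to Slco1a1 counts was 0.254, 0.329 and 0.114 in chow-fed Xbp1fl/fl libraries and 0.159 and 0.0381 in chow-fed Xbp1LKO libraries. On HFS it was 0.0284, 0.0543 and 0.0682 in Xbp1fl/fl and 0.0163, 0.019 and 0.0179 in Xbp1LKO libraries. The mean log2 ratio was 2.24 ± 0.80 below 0 (SD, n = 3) in chow-fed Xbp1fl/fl and 4.40 ± 0.66 below 0 (SD, n = 3) in HFS-fed Xbp1fl/fl libraries, and the groups did not overlap. That difference had a two-sided exact permutation p of 0.1, the smallest possible (adjusted p = 0.457 over 16). On HFS, genotype gave a difference in log2 ratio of -1.41 with the same exact p of 0.1. Diet in Xbp1LKO mice gave -2.13 without overlap, with an exact p of 0.2, the smallest possible for 3 against 2 libraries. Slco1a1 and Slco1a4 share 1.64% and 1.61% of their 50-base words with other genes, mostly each other, Slco1a5 and Slco1a6.

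Slco1b2 (ENSMUSG00000030236) encodes the liver-specific organic anion carrier that takes up unconjugated bile acids, and lies on the plus strand of chromosome 6 from 141629518 to 141686646 of GRCm38. It was 1286, 1526 and 1866 CPM in chow-fed Xbp1fl/fl and 2094 and 1836 CPM in chow-fed Xbp1LKO libraries. On HFS it was 2330 (replicate 1), 1897 and 2111 CPM in Xbp1fl/fl and 2702, 2937 and 2801 CPM in Xbp1LKO libraries. The HFS-fed Xbp1LKO libraries were above all 8 others, and the chow-fed Xbp1fl/fl libraries were lowest apart from 1, at 1866 CPM, that was above 1836 CPM in a chow-fed Xbp1LKO library.

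The log2 fold changes of Slco1b2 were 0.33, 0.41, 0.44 and 0.52 for genotype on chow, genotype on HFS, diet in Xbp1fl/fl mice and diet in Xbp1LKO mice, and none passed the test (edgeR adjusted p = 0.347, 0.208, 0.446 and 0.297). The 95% interval for genotype on HFS ran from 0.06 to 0.77, on a group difference from 2112 ± 217 to 2813 ± 118 CPM (SD, n = 3 each). On library totals, where all genes shifted as given above, both genotype comparisons of Slco1b2 passed (log2 fold change 0.66 and 0.67, edgeR adjusted p = 0.0228 and 0.021).

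The promoters of Slco1b2 and Slco1a4 are shown because these neighbours on chromosome 6 had estimates of opposite sign in all 4 two-group comparisons. Each is the 150 bases before the RefSeq start, in the direction of transcription (GRCm38.p6, chr6:141629368-141629517 on the plus strand and chr6:141856221-141856370 on the minus strand). Capitals mark TGACCT, the reverse complement of the nuclear receptor half-site AGGTCA, and GTTAAT, a half-site of HNF1, in Slco1b2, and ATTGG, the reverse complement of CCAAT, in Slco1a4.

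Slco1b2: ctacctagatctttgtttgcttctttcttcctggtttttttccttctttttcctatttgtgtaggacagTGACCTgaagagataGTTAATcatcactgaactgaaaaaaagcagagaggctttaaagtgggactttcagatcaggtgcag

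Slco1a4: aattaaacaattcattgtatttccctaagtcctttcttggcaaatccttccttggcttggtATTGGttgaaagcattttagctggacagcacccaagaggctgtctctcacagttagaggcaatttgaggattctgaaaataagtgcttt

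In Slco1b2 the half-site stands 81 bases and GTTAAT 66 bases before the start. In Slco1a4 CCAAT stands 89 and 188 bases before it, the farther copy outside the printed stretch. AGGTCA was found on either strand in the 250-base windows of 5 of the 9 members with a window (Abcb11, Slco1b2, Slco1a1, Slc10a1 and Abcc2) and in 14% of all windows. GTTAAT was found only in Slco1b2 among the 9 and in 6.43% of all windows, CCAAT in 4 of 9 and 33.8%, and TATAAA in 5 of 9 and 12.4%. ACGTG, the core of XBP1-bound elements, was found in 0 of the 9 and in 16.6% of all windows, and CACGTG in 0 of 9 and 6.02%. Pairs of AGGTCA as an inverted repeat with 1 base between, or as direct repeats with 1 or 4 bases between, were found in 0 of the 9 and in at most 11 of all 32851 windows.

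**Figure D4:**
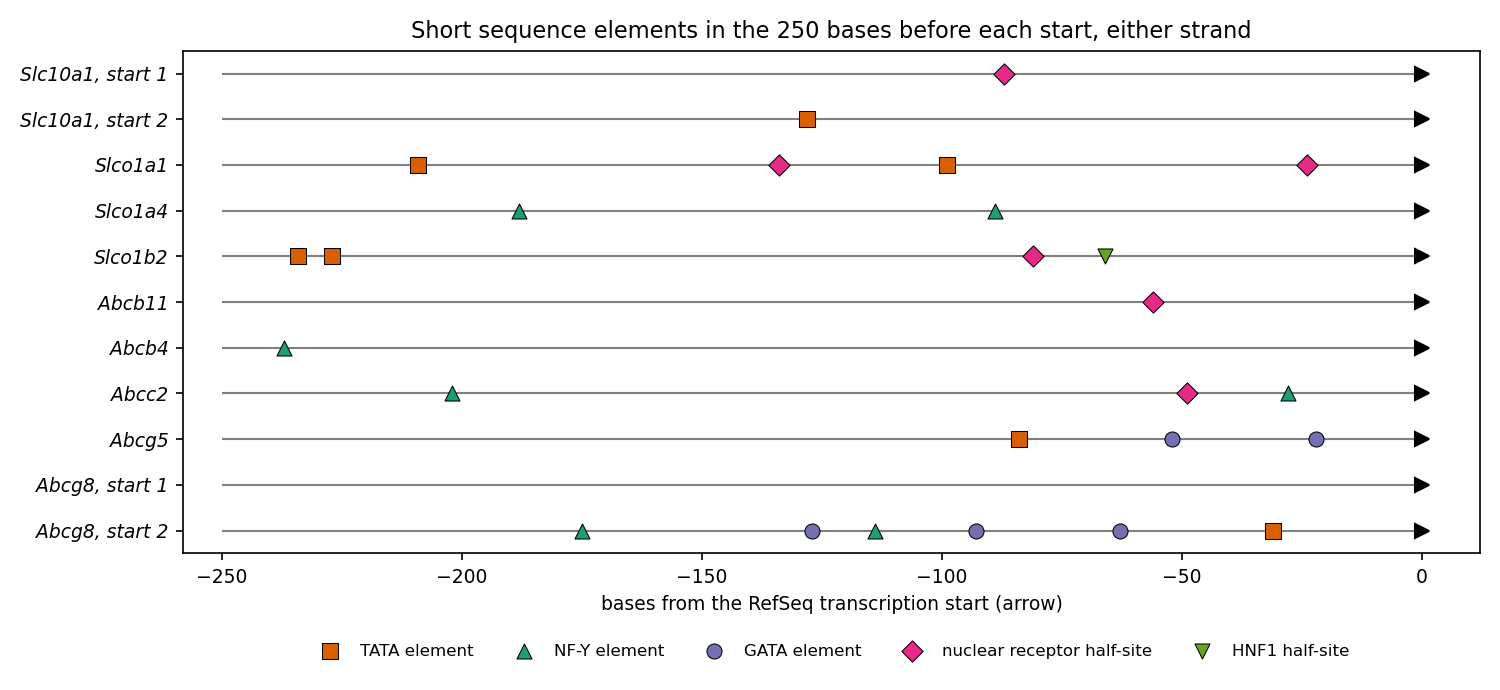
Positions of 5 short sequence elements, on either strand, in the 250 bases before each RefSeq transcription start (x axis, bases from the start, arrow) of 9 members (y axis, Slc10a1 and Abcg8 with 2 starts each). The GATA element is seen at 52 and 22 bases before Abcg5 and at 127, 93 and 63 bases before 1 Abcg8 start, the HNF1 half-site at 66 bases before Slco1b2, and the other Abcg8 start holds none of the 5.

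Slc10a1 (ENSMUSG00000021135, chromosome 12 of GRCm38, 80953183 to 80968705, minus strand), the main carrier of conjugated bile acids, was 778, 781 and 675.5 CPM in chow-fed Xbp1fl/fl and 731 and 473 CPM in chow-fed Xbp1LKO libraries. It was 844, 929 and 755 CPM in HFS-fed Xbp1fl/fl and 612, 708 and 727 CPM in HFS-fed Xbp1LKO libraries. The HFS groups did not overlap and the chow groups did. The log2 fold change for genotype was -0.31 on chow (95% interval -0.72 to 0.11) and -0.30 on HFS (-0.67 to 0.06), with edgeR adjusted p of 0.421 and 0.404. On library totals the chow value was 0.01.

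Abcb11 (ENSMUSG00000027048, chromosome 2 of GRCm38, 69238282 to 69342616, minus strand), the pump that sets bile salt export, was among the steadiest members. It was 657, 743 and 859 CPM in chow-fed Xbp1fl/fl, 795 and 774 CPM in chow-fed Xbp1LKO, 756, 747 and 622 CPM in HFS-fed Xbp1fl/fl and 744, 708 and 642 CPM in HFS-fed Xbp1LKO libraries. The groups overlapped in every comparison except diet in Xbp1LKO mice. Its log2 fold changes in the 4 comparisons were 0.06, -0.02, -0.09 and -0.17, with 95% intervals of -0.28 to 0.40, -0.33 to 0.28, -0.39 to 0.22 and -0.51 to 0.17. Gm13613, on the opposite strand, shares 89 of its 50-base words.

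The ratio of Abcb11 export to Slc10a1 uptake counts ranged from 0.804 to 1.27 in Xbp1fl/fl libraries and from 0.882 to 1.64 in Xbp1LKO libraries. Its mean log2 was 0.40 higher in Xbp1LKO on chow (exact permutation p = 0.4, n = 2 and 3) and 0.28 higher on HFS (exact permutation p = 0.2, n = 3 each), with overlapping groups in both.

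Abcb4 (ENSMUSG00000042476, chromosome 5 of GRCm38, 8893717 to 8959231, plus strand), which flips phosphatidylcholine toward bile, was 302, 351 and 377 CPM in chow-fed Xbp1fl/fl and 317 and 436 CPM in chow-fed Xbp1LKO libraries. It was 425, 349.6 and 399 CPM in HFS-fed Xbp1fl/fl and 381, 286 and 345 CPM in HFS-fed Xbp1LKO libraries. All 4 groups overlapped, and the log2 fold changes lay between -0.21 for genotype on HFS (95% interval -0.56 to 0.13) and 0.19 for diet in Xbp1fl/fl mice (-0.16 to 0.54).

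Abcc2 (ENSMUSG00000025194, chromosome 19 of GRCm38, 43782192 to 43840740, plus strand) was 780, 1092 and 1066 CPM in chow-fed Xbp1fl/fl and 935 and 787 CPM in chow-fed Xbp1LKO libraries. It was 1109, 949.6 and 1084 CPM in HFS-fed Xbp1fl/fl and 1026, 1013 and 747.5 CPM in HFS-fed Xbp1LKO libraries. These groups overlapped in every comparison. The log2 fold changes were -0.19 and -0.17 for genotype on chow and HFS and 0.10 and 0.11 for diet in Xbp1fl/fl and Xbp1LKO mice, with 95% intervals that all held 0.

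Abcc3 (ENSMUSG00000020865, chromosome 11 of GRCm38, 94343295 to 94392997, minus strand), the basolateral export pump, had the largest SD of log2 CPM within groups of the members apart from Slco1a4. It was 329, 694 and 331 CPM in chow-fed Xbp1fl/fl, 579 and 411 CPM in chow-fed Xbp1LKO, 390.5, 221 and 565 CPM in HFS-fed Xbp1fl/fl and 318, 537 and 307 CPM in HFS-fed Xbp1LKO libraries. The groups overlapped in every comparison. The 95% interval of its log2 fold change for genotype on HFS ran from -0.91 to 0.87, the widest of the members apart from Slco1a4. The ratio of Abcc3 to Abcc2 counts ranged from 0.233 to 0.635 over all 11 libraries, and no comparison of it had an exact permutation p below 0.4 (n = 2 or 3 per group).

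The spread between libraries of a group differed among members. The SD of log2 CPM within groups was 0.15 for Abcb11, 0.18 for Slco1b2, 0.20 for Abcb4, 0.21 for Slc10a1 and 0.22 for Abcc2, beside a median of 0.16 over the 2765 genes with a mean of at least 50 CPM. It was 0.32 for Abcg8, 0.36 for Abcg5, 0.45 for Slco1a1, 0.56 for Abcc3 and 0.65 for Slco1a4, which places the latter pair at percentiles 96.9 and 98 of those genes. The same size of difference was therefore harder to call for these genes.

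Some members varied together from library to library. Over the 11 libraries, which share the TMM scaling, Pearson's r of log2 CPM was 0.94 between Abcg5 and Abcg8, and 0.95 once group means were removed. For Slco1a1 and Slco1b2 it was 0.78 and 0.87. For Slco1a4 it was -0.20 and 0.87 with Abcg5, and 0.05 and 0.91 with Abcg8. Slc10a1 and Abcb4 gave negative values of -0.35 and -0.80. For Slco1a4 and Slco1b2 it was -0.77 over all libraries and 0.29 once group means were removed, so their opposite course lay between groups. These are descriptions of 11 libraries in 4 groups.

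Of the 3 protein-coding genes most like each member over the 11 libraries, a member was found only for the sterol pumps. Abcg5 was most like Hsd3b3 (r = 0.98), Spry4 (0.95) and Abcg8 (0.94), and Abcg8 was most like Abcg5 (0.94), Cnot8 (0.94) and Alg2 (0.94). Slco1a4 was most like Ndufv3 (0.95), Adap2 (0.95) and Upb1 (0.95), and Slco1b2 like Mapk4 (0.96), March8 (0.96) and Mmd (0.96). Slco1a1 was most like Scp2 (0.95), Smurf2 (0.94) and Pfkfb3 (0.94), and Slc10a1 like Vdac2 (0.94), Olfml1 (0.94) and Cnp (0.93). For Abcb11 they were Ankra2 (0.92), Mprip (0.91) and Pigc (0.91), for Abcb4 Dnajc1 (0.94), Dnmbp (0.89) and Zhx3 (0.89), for Abcc2 Hmcn1 (0.92), Cnot1 (0.91) and Ptprd (0.91), and for Abcc3 Mipep (0.91), Prox2 (0.85) and Hmgb2 (0.85). With 13303 genes and 11 libraries, values this high are found for each member.

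Some other hepatobiliary transporters changed with genotype. Of 14 tested transporters outside the set, 1 fell for genotype on each diet and 1 rose on HFS. Beside this and the lists below, 4.65% of all tested genes passed for genotype on chow and 4.19% on HFS. For diet 0.406% passed in Xbp1fl/fl and 0.0601% in Xbp1LKO mice. The prostaglandin carrier Slco2a1 fell on chow (log2 fold change -1.02, edgeR adjusted p = 0.0152) and on HFS (-1.05, 0.00787). Slco2a1 spanned 92.0 to 140.2 CPM in chow-fed and 46.4 to 58.8 CPM in HFS-fed Xbp1fl/fl libraries, and 54.0 to 57.9 and 19.6 to 29.5 CPM in the matching Xbp1LKO libraries, and it also fell with diet in Xbp1fl/fl mice (-1.14, edgeR adjusted p = 0.0225). The multidrug pump Abcb1b rose on HFS (1.76, edgeR adjusted p = 0.0237) from 0.967 to 1.48 CPM to 3.06 to 4.41 CPM. Slc22a7 on chow (1.07, edgeR adjusted p = 0.0777) did not pass. The median log2 fold change of the 14 was 0.08 on chow and 0.22 on HFS.

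None of the 18 tested genes of the canalicular membrane passed edgeR's test in any of the 5 comparisons. At the shares of all genes given above, this does not set the list apart. Its genes act in flipping lipids, carrying pumps to the membrane or sealing it, or encode other surface proteins (Anpep, Dpp4 and Ceacam1). Those with the smallest p were Cgn (log2 fold change -0.49, edgeR adjusted p = 0.137), Slc9a3r1 (-0.37, 0.33) and Vps33b (0.21, 0.421) for genotype on chow. On HFS they were Marveld2 (0.51, edgeR adjusted p = 0.0735), Stx3 (0.55, 0.133) and Ceacam1 (-0.29, 0.237).

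Of 15 tested genes of sterol efflux and uptake, 0 rose and 1 fell for genotype on chow, and 0 rose and 3 fell on HFS, with a median log2 fold change of -0.16 and -0.17. On chow the lysosomal sterol carrier Npc2 fell (-0.55, edgeR adjusted p = 0.0313), while the main HDL protein gene Apoa1 (-1.20, 0.0554) and the endocytic receptor Lrp1 (-0.96, 0.0559) did not pass. On HFS Lrp1 (-1.21, edgeR adjusted p = 0.0123), Apoa1 (-1.45, 0.0148) and the HDL receptor Scarb1 (-0.80, 0.0394) fell. With diet in Xbp1fl/fl mice, the cholesterol exporter Abca1 rose (0.92, edgeR adjusted p = 0.0432), from 173 to 195 CPM to 321 to 368 CPM. It was 260.5 to 447 CPM in HFS-fed Xbp1LKO libraries, which overlap the HFS-fed Xbp1fl/fl range. Abca1, Abcg5 and Abcg8 are known to be induced by the oxysterol receptor LXR, whose part in these values was not tested.

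Bile acid synthesis genes gave 0 higher and 2 lower of 15 tested for genotype on chow, and 0 higher and 1 lower on HFS. Slc27a5, the ligase that activates bile acids for conjugation, fell on chow (log2 fold change -1.01, edgeR adjusted p = 0.0214) and on HFS (-1.02, 0.012), and Baat, which conjugates them, fell on chow (-0.50, 0.0482). Cyp7b1 on chow (0.81, edgeR adjusted p = 0.164), and Cyp46a1 (-1.13, 0.115) and Slc27a2 (-0.40, 0.204) on HFS did not pass. Diet gave 0 of 15 in either genotype by edgeR.

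Among 20 tested genes in a list of nuclear receptors and liver transcription factors, 1 rose for genotype on each diet and 0 fell. The list also holds Fgfr4 and Klb, whose proteins are neither. Ahr, the aryl hydrocarbon receptor, rose on chow (log2 fold change 0.83, edgeR adjusted p = 0.0373), and Nfe2l2, the gene of NRF2, rose on HFS (0.59, 0.0168). Esr1 (-1.39, edgeR adjusted p = 0.07) and Foxa1 (0.45, 0.16) on chow, and Ahr (0.60, 0.0945) and Nr1h2 (-0.17, 0.396) on HFS did not pass. The 20 include the LXR, FXR, PXR and CAR genes, whose proteins are known regulators of these transporters, and no other gene of the 20 passed.

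Known targets of NRF2, CAR and PXR gave 0 calls of 17 for genotype on chow, and 3 higher and 1 lower on HFS. Gstm3 (log2 fold change 2.45, edgeR adjusted p = 0.0048), Aldh1a1 (1.13, 0.00578) and Gstm1 (0.88, 0.0495) rose, and Cyp2b10, the standard CAR target, fell (-2.76, 0.0405). On chow Gstm3 (1.09, edgeR adjusted p = 0.123), Aldh1a1 (0.52, 0.169) and Hmox1 (0.77, 0.182) did not pass. The median of the 17 was 0.66 on HFS. Abcc3 and Slco1a4, which are also known as targets of these factors, were not called, with log2 fold changes of -0.02 and -1.39 on HFS.

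Sex-biased targets of growth hormone, a class to which Slco1a1 belongs, gave 0 higher and 2 lower of 21 tested for genotype on chow and 1 higher and 0 lower on HFS. On chow Mup3 (log2 fold change -1.51, edgeR adjusted p = 0.0224) and Cyp2u1 (-1.34, 0.0187) fell and Cyp2b9 (3.73, 0.062) did not pass. On HFS Cyp2a4 rose (3.60, edgeR adjusted p = 0.00144), and Mup3 (-0.92, 0.0947) and Cyp2u1 (-0.66, 0.149) did not pass. Diet raised Cyp2b9 in Xbp1fl/fl mice (5.49, edgeR adjusted p = 0.0366) and Cyp2a4 in Xbp1LKO mice (4.02, 0.0146).

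Beside these results, markers of other cell types had estimates that leaned one way in some lists and were split in others. Apart from Sox9 on chow, none of these markers was called. For genotype on HFS, where Abcg8 was lower, 12 of 12 macrophage markers had positive estimates (median log2 fold change 0.61) and 12 of 12 endothelial markers negative ones (-0.45). Diet in Xbp1fl/fl mice, where Abcg5 and Abcg8 rose, gave positive estimates for 12 of 12 endothelial (0.79) and 10 of 10 tested stellate markers (0.45). For genotype on chow, 0 of 12 macrophage (-0.47), 0 of 12 endothelial (-1.29) and 0 of 10 stellate markers (-1.24) had positive estimates. For diet in Xbp1LKO mice, 12 of 12 macrophage (1.19), 12 of 12 endothelial (1.52) and 10 of 10 stellate markers (2.22) did. Stellate markers were split for genotype on HFS, with 7 of 10 positive (0.265). So were macrophage markers for diet in Xbp1fl/fl mice, with 7 of 12 positive (0.036). Of the 6 tested cholangiocyte markers, 1 was positive for genotype on chow and 3 on HFS. For diet, 2 of these 6 were positive in Xbp1fl/fl and 5 in Xbp1LKO mice. The hepatocyte markers had 0 higher and 3 lower calls for genotype on each diet, with medians of -0.60 and -0.63. Their part in the transporter results was not tested.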

How the data were processed

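Whole-number counts per Ensembl gene of 11 hepatocyte libraries were used as the authors deposited them, not normalized or filtered. For these counts the paper names kallisto with tximport, while the submitters' processing notes name cutadapt 1.13, STAR, HTSeq 0.6.1p1 and DESeq2 with build mm10; which made the counts is not given in the sources used here, and the paper names a stranded mRNA kit, the labels a total RNA kit, but the strand setting of the counting is not stated, so reads of overlapping genes on opposite strands may not be separated. Groups and replicate numbers came from the sample titles, and nothing was pooled here. Replicates are separate mice or pools. Symbols and positions came from GENCODE M21 (54165 of 54232 identifiers matched), and promoter windows from RefSeq, for 9 members, not Abcc3.

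edgeR 4.0.16 (R 4.3.3) gave TMM factors, CPM, a filter (filterByExpr, minimum count 10) and a robust quasi-likelihood fit of the 4 groups. Log2 CPM used a prior count of 2. Ratios of counts, with 0.5 added to each count, were compared within libraries by two-sided exact permutation tests (scipy 1.17.1). Alternatives were DESeq2 1.42.0, RLE size factors, library totals, no filter, at least 1 CPM in 3 libraries, only the groups compared, replicate blocks, no prior count and each library left out. The code was tested on simulated counts. The gene members and lists, and the rule for the genes named (all members, up to 3 genes of smallest p per list and genotype comparison, and the 3 most similar genes), were chosen with earlier results of these data known. List genes outside this rule (Abca1, Gstm1, Cyp2b9 and Cyp2a4 with diet, and Slco2a1 with diet) were named after their values were seen. The result of 1 further hepatobiliary transporter is not reported here.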

Additional observations from a re-analysis of the deposited data

How the results depend on the processing

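The counts of members that passed changed as follows. On library totals they were 1 for genotype on chow and 2 for genotype on HFS, as Slco1b2 passed. With only the groups compared they were 3 for genotype on HFS and 0 for diet in Xbp1fl/fl mice, where no filter left 1. Leaving out 1 library gave 0 to 1 for genotype on chow, 0 to 2 for genotype on HFS, 0 to 3 for diet in Xbp1fl/fl mice and 0 to 1 for diet in Xbp1LKO mice, and the replicate block, given below, also changed a count. With each chow-fed Xbp1LKO replicate left out, the other is assumed to vary like the remaining groups.

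Libraries sharing a replicate number did not deviate together: the correlation of their deviations from group means averaged -0.0087 over 15 pairs and was over 0.1 in 4. With the replicate block 0 members passed for diet in Xbp1fl/fl mice (adjusted p = 0.076 for Abcg5 and 0.0867 for Abcg8), also 0 by the other numbering of 1 library (0.11 and 0.0988). The block turned Slco1a1 on chow to 0.0898 and changed no other call.

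Directions turned only for estimates that had not passed. Among log2 fold changes for genotype on chow, library totals turned Slc10a1 to 0.0078, Abcc2 to 0.14, Slco1a1 to 0.23 and Abcg5 to 0.0562. In the same comparison on HFS they turned Abcb11 to 0.23, Abcb4 to 0.0405, Abcc2 to 0.0815 and Abcc3 to 0.25. Leaving out 1 library gave these ranges. For genotype on chow they were -0.0304 to 0.16 for Abcb11, -0.12 to 0.34 for Abcb4, -0.13 to 0.59 for Abcc3, -0.37 to 0.46 for Slco1a1 and -0.80 to 0.14 for Abcg5. Genotype on HFS gave -0.11 to 0.036 for Abcb11, -0.33 to 0.34 for Abcc3 and -0.0828 to 0.25 for Slco1a1. For diet in Xbp1fl/fl mice they were -0.18 to 0.0169 for Abcb11, -0.0428 to 0.18 for Abcc2 and -0.56 to 0.25 for Abcc3. For diet in Xbp1LKO mice they were -0.0916 to 0.53 for Slc10a1, -0.37 to 0.10 for Abcb4 and -0.00031 to 0.24 for Abcc2. The interaction of Abcg5 ranged from -0.84 to 0.087, and the log2 ratio of Abcc3 to Abcc2 for genotype on HFS from -0.0739 to 0.51. In the other 103 settings the ratios kept their direction. The causes were not tested.

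Over all genes, the calls for genotype on chow went from 618 to 3007 on library totals, 1115 with DESeq2, 957 with no filter, 239 with only the groups compared and 72 without chow-fed Xbp1LKO replicate 2. Those on HFS went from 557 to 1486 on library totals, 987 with DESeq2, 891 with no filter and 184 without HFS-fed Xbp1LKO replicate 2. For diet they went from 54 to 175 with DESeq2, 148 with no filter and 4 without HFS-fed Xbp1fl/fl replicate 3 in Xbp1fl/fl mice, and from 8 to 210 with DESeq2 and 202 with no filter in Xbp1LKO mice. Library totals moved the share of calls that were higher from 219 of 618 to 2697 of 3007 on chow and from 257 of 557 to 1294 of 1486 on HFS.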
